A study of Homo sapiens with 6 samples.

Results

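The proteasome subunits are the 48 genes, of the 61806 in the deposited table, whose symbol is PSM followed by a letter from A to G and a number. The rule takes the family by name and uses no measured value. The members fall into 8 core alpha, 8 core beta, 3 immunoproteasome, 6 ATPase, 3 base non-ATPase and 8 lid subunits, 5 activators or inhibitors and 7 assembly chaperones, and 8 of the 48 lie on chromosome 14 and 7 on chromosome 17. RNA was sequenced from 3 libraries of BEAS-2B cells treated with 15-KETE and 3 control libraries. BEAS-2B is a virus-transformed line of human bronchial epithelial cells. The compound 15-KETE, also known as 15-oxo-ETE, is a ketone derived from arachidonic acid that carries an electrophilic group. Its dose, the exposure time and what the control cells received are not given in the sources used here. Libraries were numbered 1 to 3 within each group, and no label says whether they came from separate cultures, so p-values measure the spread between these libraries, which may be technical.

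The proteasome is the protease complex that degrades ubiquitin-tagged proteins. Its core is a barrel with outer rings of alpha subunits, which gate the channel, and inner rings of beta subunits, which hold the active sites. A regulatory cap has a base with a ring of ATPases that unfold substrates and a lid that removes ubiquitin. Cells exposed to interferon replace the catalytic beta subunits with PSMB8, PSMB9 and PSMB10, which alters the peptides made for antigen presentation. In mammalian cells the transcription factor NFE2L1 raises proteasome genes when proteasome activity falls, and NFE2L2, which KEAP1 restrains, responds to electrophiles and regulates some of the same genes.

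The library totals were 17861421, 22876808 and 17562525 counts in 15-KETE replicates 1, 2 and 3, against 18215997, 21780953 and 16844781 in control replicates 1, 2 and 3, and values per library below follow this order. Control replicate 2 stood apart. The median exonic length per count, taking each count at the exonic length of its gene, was 4777 bases, against 5529 to 6118 bases in the other 5 libraries, and it had counts in 23024 genes, against 23979 to 25175 in the others. Same-numbered libraries deviated from their group means together, and the counts of the replicate 3 pair differed least, with a chi-square per gene of 2.29, against 9.32 in the replicate 1 pair and 100.2 in the replicate 2 pair. The epithelial keratins KRT7, KRT8 and KRT18 averaged 231, 51.3 and 111 FPKM (fragments scaled to exonic length and library total), whereas the epithelial adhesion genes EPCAM and CDH1 averaged 0.53 and 0.69 FPKM. The 6 epithelial markers together ran from 248 to 526 FPKM in 15-KETE libraries and from 289 to 735 FPKM in control libraries, with the top of each range in replicate 2. Summed immune markers stayed between 3.41 and 8.71 FPKM in 15-KETE and between 3.61 and 8.08 FPKM in control libraries, nearly all of it CD14, while the leukocyte gene PTPRC averaged 0.01 FPKM. Fibroblast markers summed to 2.79 to 3.75 FPKM in 15-KETE and 2.58 to 3.76 FPKM in control libraries, with LUM at 0. Endothelial markers reached at most 0.14 FPKM in 15-KETE and 0.17 FPKM in control libraries.

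Proteasome genes took a larger share of the library in control replicate 2 than in any other library. Their share of all counts was 0.5525%, 0.677% and 0.548% in 15-KETE replicates 1, 2 and 3, against 0.6054%, 0.9084% and 0.5484% in control replicates 1, 2 and 3. The 95% Wilson intervals, which cover counting error only, ran from 0.6736% to 0.6803% in 15-KETE replicate 2 and from 0.9045% to 0.9124% in control replicate 2. The groups overlapped, because 15-KETE replicates 1 and 3 and control replicate 3 all lay between 0.548% and 0.5525%. The short exonic length per count and the high keratin sum of control replicate 2 moved with its high proteasome share, and the part of the keratins in this result was not tested. In bulk RNA, fewer cells of a kind and less RNA per cell cannot be told apart.

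No proteasome gene passed the test for a difference between 15-KETE and control cells. Of the 48 members, 46 had enough counts to be tested, between 35 and 15412 per library, and 0 had an adjusted p under 0.05 in edgeR's quasi-likelihood test with Benjamini-Hochberg adjustment over 15451 genes, where 0% of all genes passed. The smallest adjusted p of a member was 0.9996, and 0 of the 46 had an unadjusted p under 0.05, against 25 genes (0.162%) over the whole table. DESeq2 also called 0 members. A fit blocked on the replicate number also called 0 members and 0 genes, with a smallest adjusted p of 0.6954 among members in edgeR. In that blocked fit PSMB6 alone of the members passed 0.05 without adjustment, on the lower side, beside 727 genes (4.71%) over the table, 2.3% of all genes on the lower side.

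The fitted values of most members nevertheless lay on the same side of 0. The log2 fold change of 15-KETE over control was below 0 in 43 of the 46 tested members (93.5%), against 50.2% of all genes tested, and the median was -0.32, against -0.002 over all genes. In the blocked fit 43 members were below 0 too, against 49.7% of all genes. The exceptions were PSMA2 (0.38), PSME4 (0.24) and PSMD5 (0.03). Without scaling factors beyond the library totals, 38 members were below 0: PSMD1, PSMD3, PSMD11, PSME3 and PSMF1 changed sign. In that fit the median over all genes was itself 0.072, and these members lay between 0.028 (PSMD1) and 0.08 (PSMF1). The share of all genes below 0 in that fit was not counted. The sign of the member median depended on control replicate 2. Without that library the member median was 0.075, against 0.006 over all genes, and 13 of 46 members were below 0. Without both replicate 2 libraries, in the blocked fit, it was -0.082, against -0.003 over all genes, and 42 members were below 0. That fit rests on the replicate 1 and 3 pairs, where 40 and 23 members were lower in 15-KETE. The share of all genes below 0 was not counted in these fits. The 95% intervals were wide: all 46 included 0, 20 lay within a 2-fold change in either direction, and their bounds ran from -1.77 to 1.20. With the replicate block 45 of 46 intervals lay within 2-fold, with bounds from -0.95 to 1.00.

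**Figure D1:**
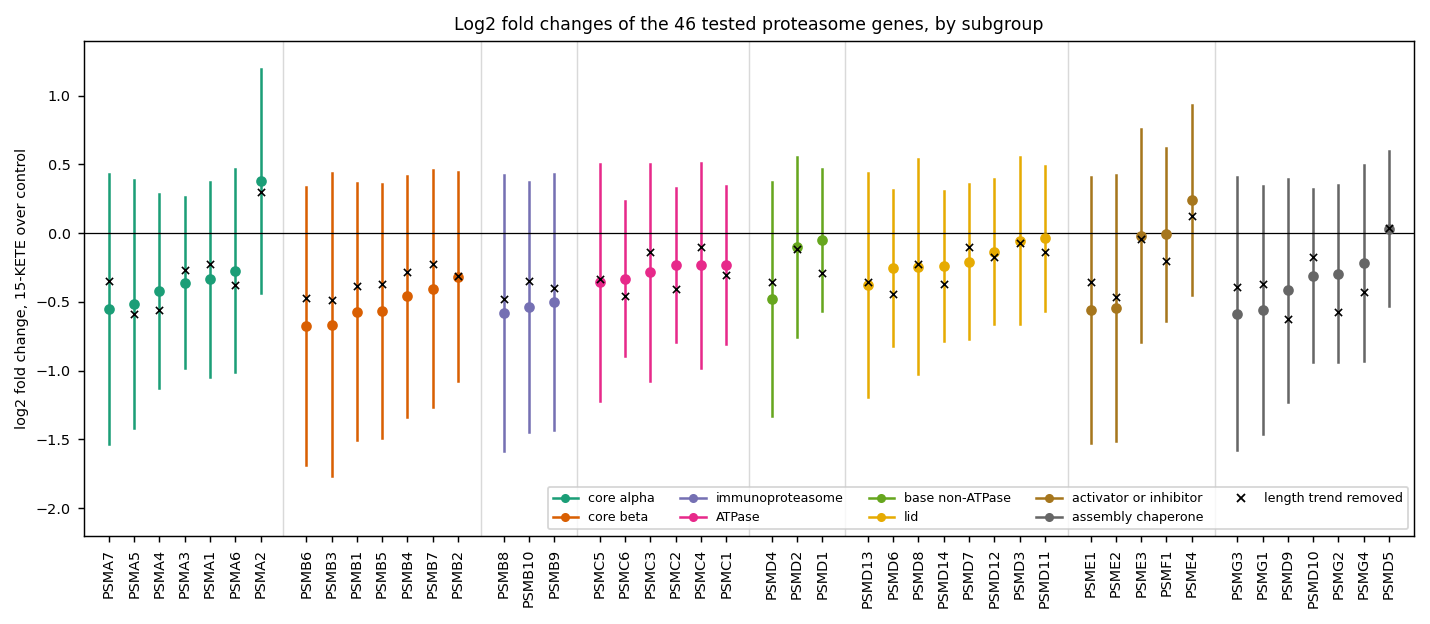
Log2 fold changes of 15-KETE over control (vertical axis) for the 46 tested proteasome genes, grouped by subgroup. Dots are the edgeR estimates, bars their 95% intervals over 3 libraries per group, and crosses the estimates after a trend on exonic length was removed from each library; 43 dots lie below 0 and all 46 bars cross it.

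The same-numbered pairs did not share this pattern equally. Within the replicate 1 pair the median difference in log2 CPM (counts scaled to the library total and by TMM, trimmed means of M values, with a prior count of 2) was -0.15, and 40 of 46 members were lower in 15-KETE, against 49.9% of all genes. The replicate 2 pair had a median of -0.67 with 41 members lower, against 50.8% of all genes. In that pair 28 members (60.9%) had a difference below -0.5, against 23% of all genes. The replicate 3 pair had a median of 0.001 with 23 members lower, against 49.4% of all genes, and its differences ran only from -0.22 to 0.29. In all 3 pairs 18 members were lower in 15-KETE (39.1%, against 14.5% of all genes) and 1, PSME4, was higher (14.6% of all genes). A further 19 members were lower in the replicate 1 and 2 pairs alone. Control replicate 2 held the highest CPM of the 6 libraries for 39 members (84.8%), against 34.5% of all genes. In CPM the groups did not overlap in 1 member, PSMC6, which was lower in 15-KETE (2.17% of members, against 1.07% of all genes). Among members 0 were higher in 15-KETE without overlap, against 1.22% of all genes.

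**Figure D2:**
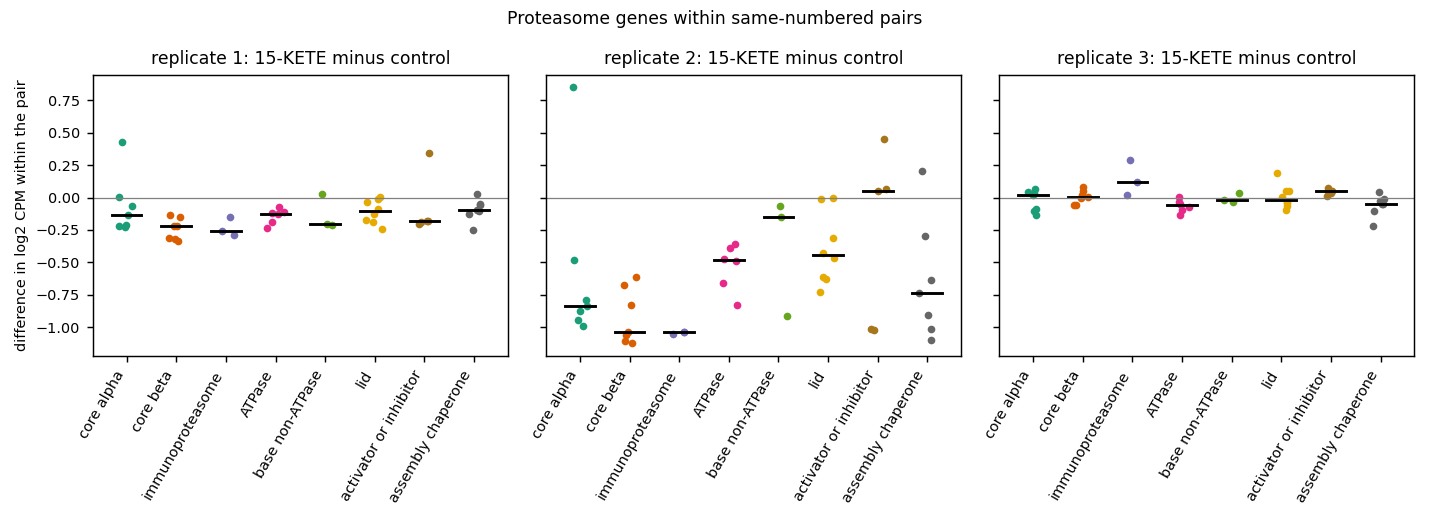
Difference in log2 CPM, 15-KETE minus control, within each same-numbered pair (one panel per pair) for the 46 tested proteasome genes. Points are genes, black bars are subgroup medians, and the medians over all 46 genes were -0.15, -0.67 and 0.001 in pairs 1, 2 and 3.

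Gene length moved with the differences in the pairs where most members were lower. Exonic length is the number of exonic bases of a gene in the deposited table. Over the 46 members, Spearman's rho between exonic length and the log2 difference was 0.61 in pair 1, 0.63 in pair 2 and -0.19 in pair 3, against 0.245, 0.389 and -0.01 over all genes tested. These are descriptions across genes of the same libraries. The 23 shorter members, of 1168 to 4313 bases, had log2 fold changes with a median of -0.50 and a pair 2 median of -0.99. The 23 longer members, of 4347 to 15795 bases, had medians of -0.23 and -0.39. After a smooth trend on length, fitted to genes outside the family, was removed from each library, the member median was -0.35, against -0.03 over all genes, and 43 of 46 members were below 0, against 55.8% of all genes. The shorter and longer members then had medians of -0.35 and -0.31. The subgroup medians then ran from -0.40 for immunoproteasome to -0.20 for lid genes, whereas without that step they ran from -0.57 for core beta to -0.02 for activator or inhibitor genes.

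**Figure D3:**
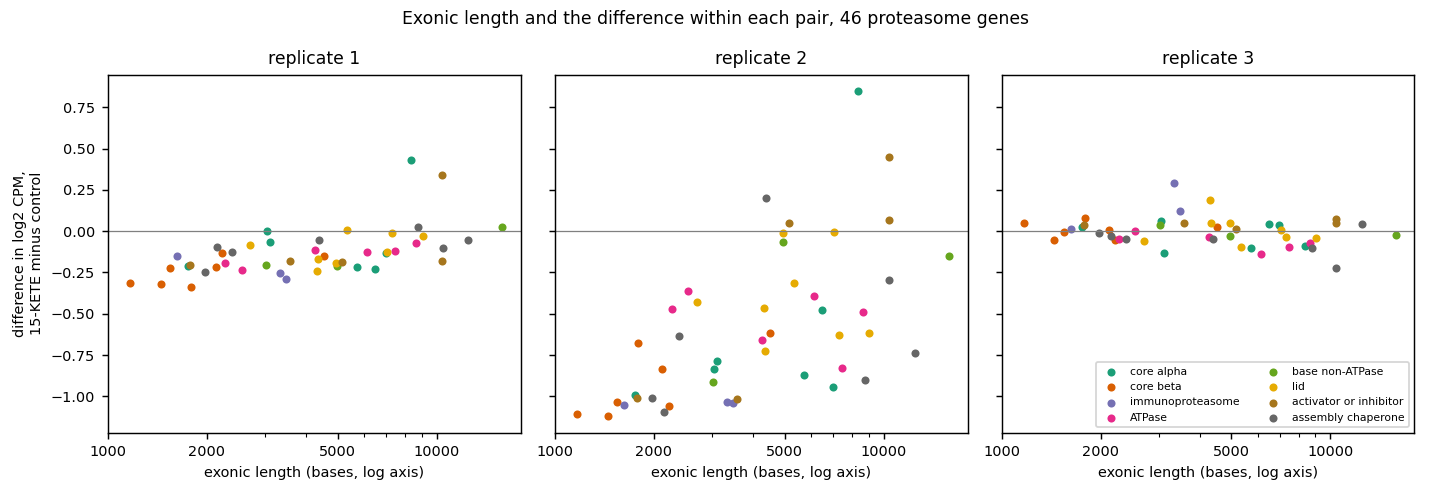
Exonic length (bases, log axis) and the difference in log2 CPM, 15-KETE minus control, for the 46 tested proteasome genes in each same-numbered pair. Points are genes coloured by subgroup; short genes lie lowest in pairs 1 and 2, and Spearman's rho was 0.61, 0.63 and -0.19 in pairs 1, 2 and 3.

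Levels per exonic length were highest among the core beta subunits. Over all 6 libraries the mean level ran from 221 FPKM for the core alpha subunit PSMA7 to 0.398 FPKM for PSMA2, with PSMB3 at 162 and PSMB4 at 112 FPKM next after PSMA7. The median member had 78.0 FPKM among core beta, 65.5 among base non-ATPase, 38.9 among activators or inhibitors, 34.2 among ATPase, 29.7 among core alpha, 26.9 among lid, 13.7 among chaperone and 10.8 among immunoproteasome genes, with members at 0 counts included. Most neighbours in the order could not be separated: of 45 neighbouring pairs, 3 had ranges over the 6 libraries that did not overlap, and in 9 the higher gene was higher in every library. FPKM divides by the exonic length of all isoforms together, and that length in the table exceeded the GENCODE 29 length most for PSMD1 (15795 against 5187 bases), PSMG2 (12490 against 3356 bases), PSMC2 (8637 against 3547 bases) and PSMF1 (10361 against 5296 bases), which lowers the FPKM of these genes. PSMA8, a testis-specific alpha subunit, and PSMB11, the thymus-specific catalytic subunit, had 0 counts in all 6 libraries, which allows up to 3 counts in each.

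**Figure D4:**
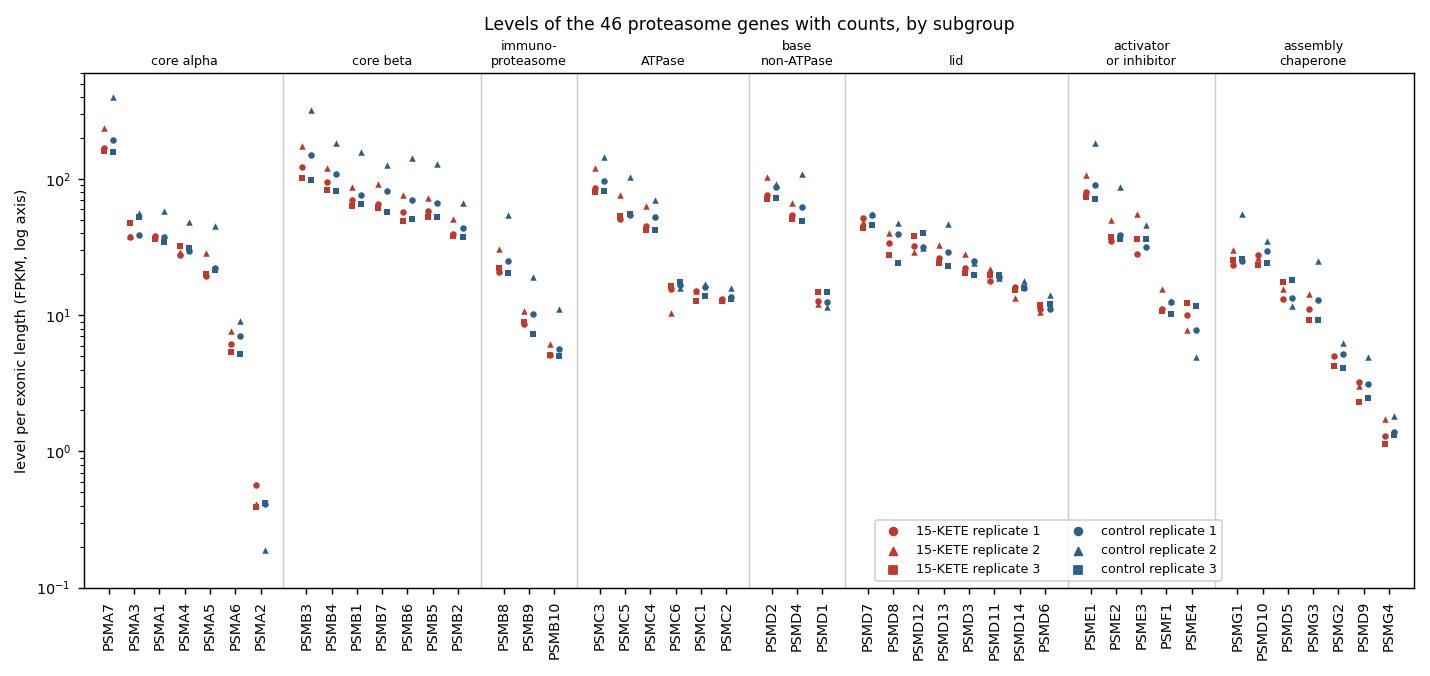
Level of the 46 proteasome genes with counts (FPKM, log axis), by subgroup and in order of mean level. Red symbols are the 3 15-KETE libraries and blue symbols the 3 control libraries, with the replicate number given by the symbol. The blue triangle of control replicate 2 is highest for most core genes and lowest for PSMA2, PSMD1, PSMD5 and PSME4.

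Among the core alpha subunits, PSMA7 was the most abundant and had the log2 fold change farthest below 0. PSMA7 had 286, 418 and 270.2 CPM in 15-KETE libraries, against 331, 832 and 266 CPM in control libraries. Control replicate 2 was highest and 15-KETE replicate 2 next, so the groups overlapped. Its log2 fold change was -0.55 ± 0.44 (SE). PSMA2 went the other way, with 4.57, 3.49 and 3.15 CPM in 15-KETE libraries, against 3.36, 1.89 and 3.35 CPM in control libraries, giving a log2 fold change of 0.38 ± 0.36. Here control replicate 2 was the lowest library. PSMA2 is an obligate subunit of the ring, yet it had 35 to 85 counts per library. In GENCODE 29, 97.1% of its coding bases are shared with a readthrough gene on the same strand, ENSG00000256646, which itself had 3 to 17 counts per library. PSMA1, PSMA6, PSMD9 and PSMB10 share 88.6%, 70.35%, 58.74% and 58.31% of their coding bases with genes on the same strand. Their mean levels were 40.78, 6.77, 3.19 and 6.375 FPKM, against 0.398 FPKM for PSMA2. PSMA1 had 1781 to 3910 counts. The part of shared bases in the low counts of PSMA2 was not tested. The rules by which the submitters counted reads of overlapping genes, of the opposite strand or of pseudogene copies are not given in the sources used here.

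The remaining alpha subunits divided by pair in the same manner. PSMA1 had differences of 0.004, -0.83 and 0.06 in pairs 1, 2 and 3. PSMA4, with -0.13, -0.95 and 0.04, and PSMA6, with -0.23, -0.48 and 0.05, were likewise lower mainly in pair 2. Both PSMA3, with -0.06, -0.79 and -0.13, and PSMA5, with -0.22, -0.87 and -0.10, were lower in every pair. The core alpha medians were -0.13, -0.83 and 0.02 in pairs 1, 2 and 3, and 6 of the 7 tested members had a fold change below 0.

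The core beta subunits had the lowest median log2 fold change of the 8 subgroups, -0.57, with 7 of 7 tested members below 0 and control replicate 2 the highest library for all 7. PSMB3, a non-catalytic ring subunit and the shortest member at 1168 exonic bases, had 138, 205 and 113 CPM in 15-KETE libraries, against 171, 443 and 109 CPM in control libraries, giving a log2 fold change of -0.66 ± 0.49. Its value in 15-KETE replicate 3 exceeded that in control replicate 3. PSMB2, another non-catalytic subunit, lay nearest 0 in this subgroup at -0.32 ± 0.34, with 172, 232 and 165 CPM in 15-KETE libraries, against 191, 355 and 162 CPM in control libraries. PSMB1, with pair differences of -0.13, -1.06 and -0.05, and PSMB4, with -0.22, -0.83 and 0.01, complete the non-catalytic members.

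The stretch before the PSMB3 start site is shown because it holds both of the sequence motifs linked to constitutive and stress control of proteasome genes that were searched for, in a gene with one of the lowest pair 2 differences (-1.11). It is the 250 bases before the RefSeq start site on the plus strand of GRCh38.p14 (chr17:38752491-38752740). The capitals mark a match to TGACNNNGC, the core of the antioxidant response element that NFE2L1 and NFE2L2 bind with a MAF partner. They also mark 2 matches to CCAAT, the NF-Y box. PSMA4, PSMB9, PSMD3 and PSMG1 also held both motifs in the 250 bases before a start site. Their pair 2 differences were -0.95, -1.03, -0.01 and -1.10, and a link between motifs and differences was not tested.
PSMB3: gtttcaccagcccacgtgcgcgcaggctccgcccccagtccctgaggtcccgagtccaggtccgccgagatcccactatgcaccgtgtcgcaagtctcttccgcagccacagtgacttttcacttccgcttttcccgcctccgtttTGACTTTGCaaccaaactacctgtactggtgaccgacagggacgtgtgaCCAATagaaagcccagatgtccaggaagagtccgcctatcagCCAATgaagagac

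Motif matches in the family were counted in the RefSeq windows from 250 bases before to 50 after each start site, on both strands. Of the 48 members, 42 had a window, 51 windows in all, and PSMA7, PSMB1, PSMB6, PSMB7, PSMD4 and PSMG3 were not matched. TGACNNNGC was found in 15 of 51 member windows (29.4%), against 13.35% of all 35116 windows in the table. The looser TGANNNNGC, which contains every TGACNNNGC match, was found in 62.75% of member windows, against 41.8% of all windows. CCAAT was found in 39.2%, against 34.6%, and GAAANNGAA, the core of the interferon-stimulated response element, in 15.7%, against 8.11%. By subgroup, TGACNNNGC was in 4 of 7 chaperone windows, 3 of 6 activator or inhibitor windows and 1 of 10 core alpha windows. A match describes letters in a window and shows neither binding nor a role in these cells. The sites of 3 members with the motif are shown for comparison with PSMB3, as printed on the gene's strand, with the match in capitals: PSMA4 at chr15:78540652-78540676 (plus strand), PSME1 at chr14:24136100-24136124 (plus strand) and PSME2 at chr14:24146769-24146793 (minus strand).
PSMA4: gggcacgaTGACTCTGCaccgcctc
PSME1: ggcagggcTGACCCCGCctcctcca
PSME2: ctggactgTGACCCAGCcagcaccg

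The catalytic subunits of the standard core and those of the immunoproteasome had fold changes of similar size. PSMB5 carries the chymotrypsin-like site, PSMB6 the caspase-like site and PSMB7 the trypsin-like site, and PSMB8, PSMB9 and PSMB10 take their places in the immunoproteasome. PSMB6 (ENSG00000142507, chromosome 17) had the lowest log2 fold change of all members, -0.67 ± 0.45, with 79.8, 113 and 68.3 CPM in 15-KETE libraries, against 99.7, 245 and 71.0 CPM in control libraries. It was lower in 15-KETE in all 3 pairs, with differences of -0.32, -1.12 and -0.06. PSMB5 had 86.3, 115 and 78.0 CPM in 15-KETE libraries, against 101, 235 and 78.1 CPM in control libraries, giving a log2 fold change of -0.57 ± 0.41. PSMB7 had 113, 167 and 104 CPM in 15-KETE libraries, against 142, 266 and 98.8 CPM in control libraries, giving a log2 fold change of -0.40 ± 0.38. For each of these genes the highest 15-KETE library exceeded 2 of the 3 controls, so the groups overlapped.

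All 3 immunoproteasome genes had counts, although no label names added interferon. PSMB8 and PSMB9 lie on opposite strands of chromosome 6 with overlapping spans, and the antisense gene PSMB8-AS1 there had 81 to 201 counts per library. In GENCODE 29, PSMB10 shares 58.31% of its coding bases with a gene on the same strand, ENSG00000261884, which had 21 to 58 counts per library. The part of these overlaps in the counts and ratios was not tested. PSMB8 had 69.1, 108 and 73.7 CPM in 15-KETE libraries, against 84.5, 223 and 67.7 CPM in control libraries, giving a log2 fold change of -0.58 ± 0.44. PSMB9 had 27.7, 36.6 and 28.5 CPM in 15-KETE libraries, against 33.0, 75.0 and 23.3 CPM in control libraries, giving a log2 fold change of -0.50 ± 0.41. PSMB10 had 8.01, 10.2 and 7.92 CPM in 15-KETE libraries, against 8.91, 21.3 and 7.83 CPM in control libraries, giving a log2 fold change of -0.54 ± 0.40. In each gene control replicate 2 was the highest and control replicate 3 the lowest library, so the control range enclosed the 15-KETE range. The subgroup medians were -0.25, -1.04 and 0.12 in pairs 1, 2 and 3, and none of the 3 genes was lower in 15-KETE in pair 3.

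The proportion of immunoproteasome to standard catalytic transcripts differed between the group means by less than the larger group SD, without regard to pairs. Per length, PSMB8 stood at 0.399 ± 0.0371 of PSMB5 in 15-KETE libraries and 0.394 ± 0.0248 in control libraries (SD, n = 3 each). PSMB9 stood at 0.157 ± 0.0211 of PSMB6 in 15-KETE libraries and 0.140 ± 0.0061 in control libraries. PSMB10 stood at 0.0763 ± 0.0081 of PSMB7 in 15-KETE libraries and 0.0813 ± 0.0108 in control libraries. Summed over the 3 genes each, the ratio was 0.190, 0.197 and 0.222 in 15-KETE libraries, against 0.186, 0.212 and 0.202 in control libraries. Each difference between group means was smaller than the larger of the SDs, and all groups overlapped. For PSMB9 over PSMB6, however, the difference was larger than the control SD. Within same-numbered pairs, PSMB9 over PSMB6 was higher in 15-KETE in all 3, at 0.150, 0.141 and 0.181 in 15-KETE libraries, against 0.144, 0.1325 and 0.142 in control libraries. PSMB8 over PSMB5 was higher in 15-KETE in pair 3 alone, PSMB10 over PSMB7 in pair 1 alone and the sum in pairs 1 and 3; these paired differences were not tested. Control replicate 2, highest for all 6 genes, gave the highest ratio for PSMB8 and PSMB10, but by little. For PSMB8 it was 0.4218, against 0.4208 in 15-KETE replicate 2, and for PSMB10 0.0878, against 0.0872 in control replicate 3. The same library gave the lowest ratio for PSMB9 and a value within the range of the other libraries for the sum.

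**Figure D5:**
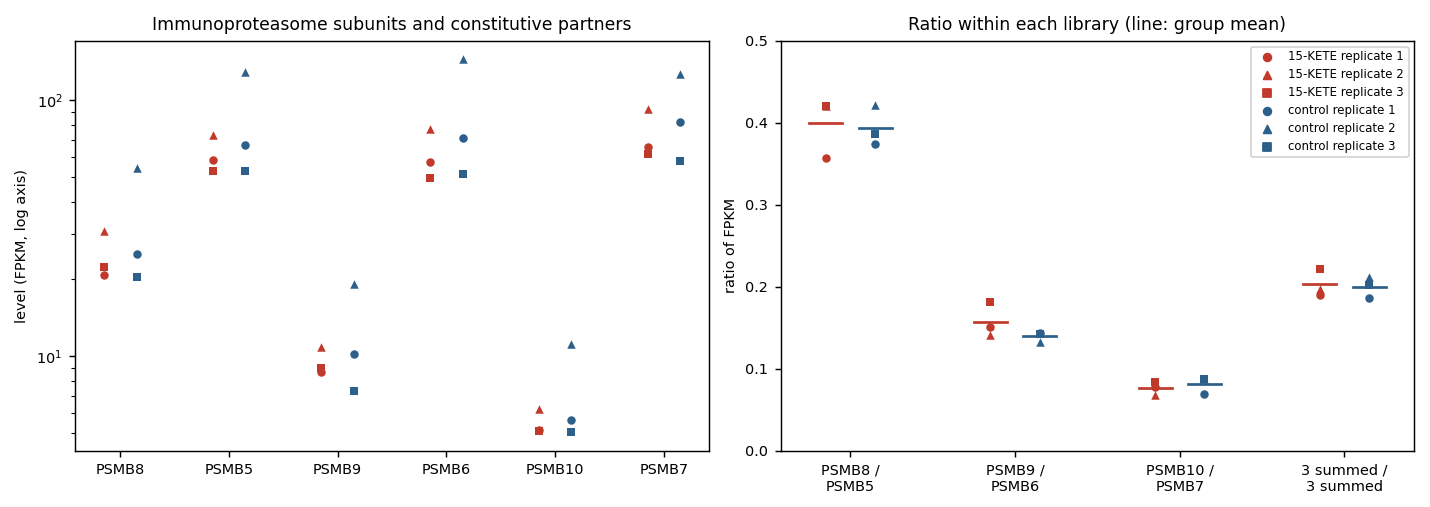
Left, levels (FPKM, log axis) of the 3 immunoproteasome subunits, each beside the standard subunit it replaces; right, ratios of FPKM within each library, with group means as lines. Red is 15-KETE and blue is control, 3 libraries each; the summed ratio was 0.203 ± 0.0167 in 15-KETE and 0.200 ± 0.0131 in control libraries (SD).

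The immunoproteasome genes PSMB8 and PSMB10 share letters near their start sites with the activator genes PSME1 and PSME2, which interferon also induces, and with the chaperone PSMG4. The search was for GAAANNGAA, and the narrower GAAAGCGAA was taken from its matches. The core GAAAGCGAA, on one strand or the other, was in the windows of PSMB8, PSMB10, PSME1, PSME2 and PSMG4. These sites are shown because 4 of the 5 genes are interferon-induced. PSMA4, PSMB4 and PSMC2 matched GAAANNGAA with other middle letters, and the PSMB9 window held no match. The narrower core was picked after these matches were seen, and its share of all windows was not counted. The sites are thus a description and do not set these genes apart from others. Capitals mark the core, each line runs 5′ to 3′ on the gene's strand, and TTCGCTTTC is the same core on the other strand. Coordinates are in GRCh38.p14: PSMB8 at chr6:32844034-32844058 (minus), PSMB10 at chr16:67936855-67936879 (minus), PSME1 at chr14:24136192-24136216 (plus), PSME2 at chr14:24146622-24146646 (minus) and PSMG4 at chr6:3258906-3258930 (plus).
PSMB8: ctgtggctTTCGCTTTCacttcctc
PSMB10: gtaaaggcGAAAGCGAAagcaggaa
PSME1: ctaccgctTTCGCTTTCccttcgcg
PSME2: tggggagtGAAAGCGAAagcccggg
PSMG4: ccggggccGAAAGCGAAagcgcgct

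The ATPases, which form the unfolding ring of the base, had log2 fold changes with a median of -0.26 over a narrow range. PSMC5, the farthest below 0 at -0.36 ± 0.38, had 208, 329 and 220.4 CPM in 15-KETE libraries, against 226, 520 and 226 CPM in control libraries. PSMC3, the most abundant ATPase per length, had 187, 280.2 and 173 CPM in 15-KETE libraries, against 213, 389 and 179 CPM in control libraries, at -0.29 ± 0.35. The 15-KETE replicate 2 library was above 2 of the 3 controls for both genes. PSMC2, the lowest ATPase in FPKM on an exonic length of 8637 bases, had 109, 115 and 104 CPM in 15-KETE libraries, against 115, 162 and 109 CPM in control libraries, at -0.23 ± 0.25. PSMC1 had 88.4, 93.3 and 74.2 CPM in 15-KETE libraries, against 96.6, 122.6 and 81.6 CPM in control libraries, also at -0.23 ± 0.26, and so stood below PSMC2 in CPM in every library. Of the PSMC1 coding bases, 47.7% lie opposite exons of NRDE2 on the other strand, so its counts are uncertain if the counting ignored strand.

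Being lower in every pair was most frequent among the ATPases, 5 of 6, beside 18 of 46 over the whole family and 14.5% of all genes. In pair 3 the differences of these 5 were small, from -0.14 for PSMC1 to -0.04 for PSMC5. PSMC6 (ENSG00000100519, chromosome 14) was the member whose groups did not overlap in CPM, with 111, 78.6 and 117 CPM in 15-KETE libraries, against 121, 140.0 and 125 CPM in control libraries, giving a log2 fold change of -0.33 ± 0.25 with an interval from -0.89 to 0.23. On the FPKM scale the groups overlapped, with 15.5, 10.4 and 16.4 FPKM in 15-KETE libraries, against 16.6, 15.9 and 17.5 FPKM in control libraries. PSMC6 also differed from the core genes in where the pair 2 difference lay, since its lowest library was 15-KETE replicate 2. PSMC4 was the exception, with pair differences of -0.24, -0.36 and 0.004.

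The base subunits without ATPase activity had log2 fold changes from -0.48 to -0.05. PSMD4, a ubiquitin receptor, had 159, 205 and 147 CPM in 15-KETE libraries, against 184, 385 and 143 CPM in control libraries, giving a log2 fold change of -0.48 ± 0.38. PSMD2, the large scaffold that docks ubiquitin shuttles, had 365, 518 and 339.6 CPM in 15-KETE libraries, against 423, 542 and 347 CPM in control libraries, at -0.10 ± 0.29. PSMD1, the other large scaffold, had 194, 194 and 222 CPM in 15-KETE libraries, against 191, 215 and 225 CPM in control libraries, at -0.05 ± 0.23. Control replicate 2 was well above the other 5 libraries for PSMD4, was close to 15-KETE replicate 2 for PSMD2, and was not the highest library for PSMD1. PSMD4 is also the shortest of the 3, with 3021 exonic bases, against 4960 for PSMD2 and 15795 for PSMD1.

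Lid subunits had log2 fold changes with a median of -0.22, with 8 of 8 below 0. PSMD13 had 109.6, 145 and 99.8 CPM in 15-KETE libraries, against 123.2, 241 and 96.3 CPM in control libraries, the lowest of the lid at -0.38 ± 0.36. PSMD11, a subunit that has been linked to raised proteasome activity in stem cells, had 121, 156 and 134 CPM in 15-KETE libraries, against 132, 157 and 134 CPM in control libraries, the nearest to 0 at -0.04 ± 0.23. The most abundant lid gene per length was PSMD7, the inactive partner of the deubiquitinase, with 135, 132 and 113 CPM in 15-KETE libraries, against 143, 178 and 118 CPM in control libraries, at -0.21 ± 0.25. The least abundant was PSMD6, with 96.1, 97.5 and 102 CPM in 15-KETE libraries, against 98.1, 149 and 105 CPM in control libraries, at -0.25 ± 0.25. For PSMD6 and PSMD7 every 15-KETE library was below its same-numbered control.

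The other lid genes were described by their pairs. PSMD14, the deubiquitinase itself, had differences of -0.01, -0.63 and -0.04 in pairs 1, 2 and 3. PSMD3 had -0.19, -0.01 and 0.05, and was thus even in pair 2, where most members were lower. PSMD8 had -0.24, -0.47 and 0.19, and PSMD12 had 0.008, -0.31 and -0.10.

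Among the activators, PSME1 and PSME2 had fold changes near those of the core beta genes, and the others lay near or above 0. PSME1 and PSME2 form the interferon-inducible ring that opens the core without ATP, and PSME1 had 136, 192 and 125 CPM in 15-KETE libraries, against 157, 388 and 122 CPM in control libraries, giving a log2 fold change of -0.56 ± 0.43. PSME2 had pair differences of -0.18, -1.02 and 0.05, next to -0.21, -1.01 and 0.04 for PSME1. These genes lie 4394 bases apart on chromosome 14. PSME3, the nuclear activator, had -0.19, 0.05 and 0.01, and PSMF1, an inhibitor of the core, had -0.18, 0.07 and 0.07. PSME4 (ENSG00000068878, chromosome 2), the large activator that acts on acetylated histones, was the sole member higher in 15-KETE in every pair, with 100.1, 82.0 and 121 CPM in 15-KETE libraries, against 78.9, 60.1 and 117 CPM in control libraries, giving a log2 fold change of 0.24 ± 0.31. Its lowest library was control replicate 2, and without that library its fold change was 0.05. The subgroup median, -0.02, was 0.08 without scaling factors, against 0.072 over all genes. With the length trend removed it was -0.20, against -0.03 over all genes. PSME1 has 1776 exonic bases, PSME4 has 10392 and PSMF1 has 10361.

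Assembly chaperones had log2 fold changes with a median of -0.31, with 6 of 7 below 0. PSMG3, which with PSMG4 helps to build the alpha ring, had 21.0, 28.8 and 17.2 CPM in 15-KETE libraries, against 24.9, 58.2 and 17.4 CPM in control libraries, at -0.58 ± 0.44. PSMG4 was the scarcest chaperone per length, with 12.9, 18.1 and 11.2 CPM in 15-KETE libraries, against 13.9, 22.3 and 13.1 CPM in control libraries, at -0.22 ± 0.32. PSMG1, the most abundant chaperone, had 48.8, 65.3 and 52.3 CPM in 15-KETE libraries, against 52.2, 139.7 and 53.4 CPM in control libraries, at -0.56 ± 0.40. Its partner PSMG2 had pair differences of -0.05, -0.74 and 0.05. All 3 genes with CPM values here were lower in 15-KETE in every pair.

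Chaperones of the base had values on both sides of 0. PSMD5 had 55.5, 69.6 and 74.2 CPM in 15-KETE libraries, against 57.7, 60.5 and 76.6 CPM in control libraries, giving a log2 fold change of 0.03 ± 0.25 whose sign depended on which library was left out. PSMD9 had pair differences of 0.02, -0.90 and -0.10, and PSMD10, also known as gankyrin, had -0.13, -0.63 and -0.05.

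The genes around the proteasome gave 0 calls in each of 4 lists, by edgeR or DESeq2, and 0 of their members passed 0.05 without adjustment. In the blocked edgeR fit SEM1, DDI2 and RPS27A passed 0.05 without adjustment, 3 of 45 genes, against 4.71% of all genes. Among 11 other proteasome genes, which include receptors, deubiquitinases and the chaperone POMP, the median log2 fold change was -0.10 with 9 below 0. They ran from the small lid component SEM1 at -0.53, with pair differences of -0.27, -1.13 and -0.03, to the ubiquitin ligase UBE3C at 0.25, with 0.05, 0.56 and 0.10. Ubiquitin supply and delivery, 15 genes, had a median of -0.10 with 10 below 0. Its lowest member was the ubiquitin and ribosomal fusion gene RPS27A at -0.67, and its highest FAF2, a cofactor of the unfoldase VCP, at 0.25.

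The genes that control proteasome transcription had values on both sides of 0. The 11 genes of the NFE2L1, NFE2L2 and NF-Y systems had a median of 0.004 with 5 below 0. They ran from KEAP1, which restrains NFE2L2, at -0.28, to DDI2, the protease that activates NFE2L1, at 0.36. DDI2 had 58.0, 51.6 and 77.2 CPM in 15-KETE libraries, against 51.4, 27.1 and 67.4 CPM in control libraries, and was higher in 15-KETE in each pair, the lowest library again being control replicate 2. Interferon control genes, 8 in all, had a median of 0.12 with 1 below 0, against 50.2% of all genes. They ran from the factor IRF1 at -0.13 to the peptide-loading gene TAPBP at 0.30. These genes are long, with a median of 9833.5 exonic bases, against 4892 over all genes tested. With the length trend removed, their median was 0.01 with 3 below 0, against -0.03 and 55.8% over all genes. TAPBP had pair differences of -0.10, 1.07 and 0.12, so its distance from 0 lay in pair 2, as in the immunoproteasome genes but with the opposite sign.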

How the data were processed

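RNA was extracted with a column kit, and libraries of polyadenylated RNA were made with a SMARTer kit, per the labels' protocols. HISAT2 2.2.1, HTSeq 0.6.1, cutadapt 1.9.1, Cufflinks 2.2.1 and StringTie 1.3.3b are among the tools in the submitters' processing notes, which state no role or order. The genome build and the strand setting are not given in the sources used here. The authors deposited 1 table with raw counts per gene and library and with FPKM values, per the file headers. In all 6 libraries 100% of the deposited FPKM values lay within 0.01 of values recomputed from the count, exonic length and library total.

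The main test was edgeR 4.0.16 on the deposited counts (R 4.3.3, filterByExpr by group, TMM scaling, robust quasi-likelihood test, Benjamini-Hochberg adjustment over 15451 genes, threshold 0.05), after the code was tested on simulated data. Standard errors are from that fit. Alternatives used DESeq2 1.42.0, limma-voom 3.58.1, other scalings and filters, a length trend (mgcv), a replicate block and libraries left out. Deviations from the group means correlated at 0.57, 0.646 and 0.722 between same-numbered libraries, against -0.564 to -0.092 between others. Deviations within a group cancel by construction, so positive same-numbered values push the others negative, and this contrast is partly built in. Numbers, which come from the sample titles, were taken to pair libraries on these values. The members, gene lists and tests were chosen with earlier results of these data known. Named in full were, per subgroup, the members of largest and smallest fold change and level, and the catalytic subunits with their immunoproteasome counterparts. PSMC6 and the sequences shown were chosen after values were seen. Overlaps of genes come from GENCODE 29 on GRCh38, where 31 of 48 members had the table's start or end, and promoter sequences from RefSeq GRCh38.p14. Table coordinates are not printed.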

Additional observations from a re-analysis of the deposited data

How the results depend on the processing

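In every alternative, libraries left out included, 0 members were called, and the smallest adjusted p of a member was 0.2769 in edgeR (without replicate 3). Over the whole table the count of called genes, 0 in the main analysis, ran from 0 to 12 with libraries or pairs left out: 1 without the replicate 1 pair and 12, all higher in 15-KETE, without the replicate 3 pair, both with the replicate block on the rest. The replicate block itself moved the member median to -0.263 and changed no call. Other scalings, filters and tools gave member medians from -0.341 to -0.21 and the length trend -0.348 (-0.273 with the block). Without scaling factors, where the median over all genes was 0.072, PSMD1 (0.028), PSMD11 (0.043), PSMD3, PSME3 and PSMF1 changed sign. Taken on CPM, with no division by length, the ratios were 0.897 for PSMB8 over PSMB5 and 0.363 for PSMB9 over PSMB6 in 15-KETE libraries.

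With single libraries or pairs left out, the upper end of each range below came without control replicate 2, except for PSMD1, PSMD5 and PSMD11; the cause was not tested. The median ran from -0.48 to 0.075 over all members, from -0.524 to 0.075 for core alpha, from -0.774 to 0.136 for immunoproteasome, from -0.812 to 0.082 for core beta, from -0.391 to 0.042 for ATPase, from -0.315 to 0.063 for other base, from -0.3 to 0.004 for lid, from -0.366 to 0.145 for activator or inhibitor and from -0.457 to 0.046 for chaperone genes. Single members ran from -0.81 to 0.125 (PSMA7), -0.498 to 0.104 (PSMB2), -0.984 to 0.12 (PSMB3), -0.822 to 0.06 (PSMB5), -0.959 to 0.029 (PSMB6), -0.648 to 0.087 (PSMB7), -0.845 to 0.14 (PSMB8), -0.774 to 0.136 (PSMB9), -0.762 to 0.061 (PSMB10), -0.535 to 0.124 (PSMC3), -0.6 to 0.164 (PSMC5), -0.115 to 0.029 (PSMD1), -0.315 to 0.086 (PSMD2), -0.712 to 0.063 (PSMD4), -0.058 to 0.195 (PSMD5), -0.146 to 0.057 (PSMD11), -0.594 to 0.11 (PSMD13), -0.821 to 0.118 (PSME1), -0.778 to 0.074 (PSMG1), -0.867 to 0.082 (PSMG3) and -0.447 to 0.065 (PSMG4). PSMA2, PSMC1, PSMC2, PSMD6, PSMD7 and PSME4 kept their sign throughout. A planned comparison of protein identity between paired subunits was not run.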
